A study of Homo sapiens with 2 samples.

Results

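The 10 genes described here encode surface or secreted proteins through which tumour cells restrain immune cells: CD276, CD274, PDCD1LG2, VTCN1, NECTIN2, PVR, CD47, TNFRSF14, LGALS9 and CEACAM1. They are a list of tumour immune checkpoint ligands, chosen by the siYY1 minus siControl difference of CD276, which was known to be among the lowest of the comparison, so every value below is a description and none is a test. Each had 1 probe set, and all 10 were found among the 17687 named genes. Expression was measured on 2 whole-transcript microarrays of the established colorectal cancer line DLD-1, which is human. One culture received a commercial negative control siRNA (siControl) and the other 1 commercial siRNA directed at the transcription factor YY1 (siYY1). Both were given at 5 nmol/L by lipid transfection, and RNA was prepared 3 days later. The question was which transcripts differ once YY1, a DNA-binding zinc finger protein, is knocked down. Both cultures carried an siRNA and the transfection reagent, and a single siRNA sequence was used against YY1. With 1 array per group there is no replicate error, no p-value and no check of whether a difference would recur.

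Checkpoint ligands act by engaging inhibitory receptors on T cells, natural killer cells or macrophages. CD274 (PD-L1) and PDCD1LG2 (PD-L2) bind PD-1, while CD276 (B7-H3) and VTCN1 (B7-H4) are B7 relatives whose inhibitory receptors are less settled. PVR (CD155) and NECTIN2 (CD112) bind both the inhibitory receptor TIGIT and the activating receptor CD226. CD47 binds SIRPA on macrophages and restrains phagocytosis. TNFRSF14 (HVEM) engages BTLA and CD160, LGALS9 (galectin-9) binds HAVCR2 (TIM-3) among other glycoproteins, and CEACAM1 is a homophilic adhesion receptor. Interferon gamma signalling through JAK and STAT proteins is a known inducer of CD274 in epithelial tumours.

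The array levels are log2 units after quantile normalization of the pair, and a difference is always siYY1 minus siControl, so that 1 unit is 2-fold. A gene was compared where its higher value of the 2 arrays reached 7.50, the median of that value over all named genes, and 8747 protein-coding genes did so. Of the 10 ligand genes, 4 were compared and 6 were too dim. Among the 4 compared, 2 (CD276 and PVR) were at least 2-fold lower on the siYY1 array and 0 were higher by that much. The shares over all genes compared were 9.37% past 2-fold on the lower side and 7.92% on the higher side. At 1.5-fold, 2 were lower and 1 (CD47) higher, against 21.8% and 19.4% of all genes compared. At 3-fold, 1 (CD276) was lower and 0 higher, against 2.44% and 1.89%. The list was built around CD276, so nothing is read from its share past 2-fold. The median difference of the 4 was -0.43, against -0.01 over all genes compared, and it was 0.35 over the 3 that remain without CD276. No probe set with a gene name belonged to YY1, so the knockdown itself was not analysed here and the groups rest on their labels. In RNA from a whole culture, fewer cells that express a gene and less of its RNA per cell cannot be told apart.

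**Figure D1:**
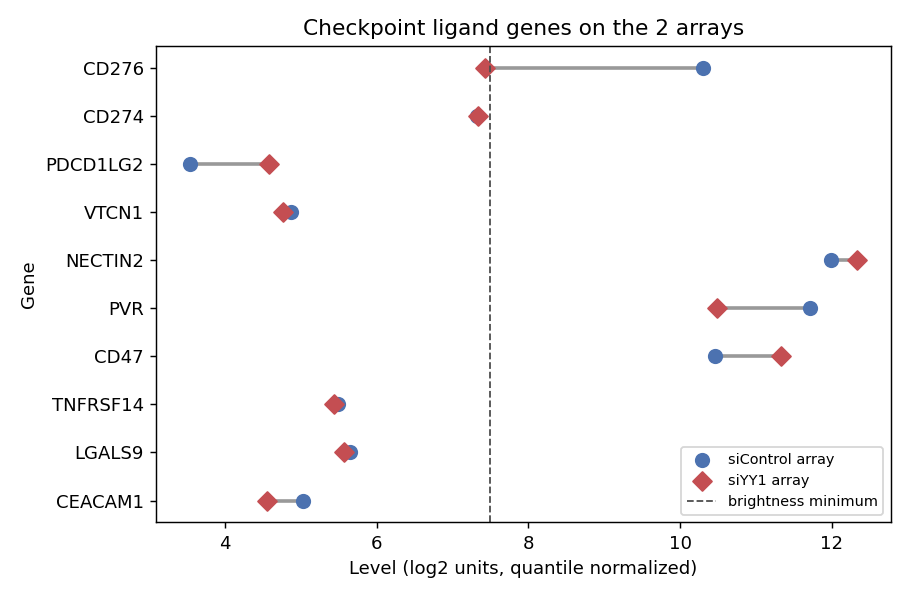
Level of each ligand gene (rows) in log2 units after quantile normalization on the siControl array (circles) and the siYY1 array (diamonds), 1 array each, with the brightness minimum of 7.50 as a dashed line. CD276 crossed the minimum from 10.30 to 7.43, PVR, NECTIN2 and CD47 lay above it on both arrays, and the other 6 genes lay below it on both.

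The sequences around the annotated starts of the 4 genes compared are shown because the factor targeted by the siRNA binds DNA near many starts, and these are the ligand genes whose transcripts were measured well enough to set beside them. Each line gives 250 bases before to 50 bases after a start, from RefSeq on GRCh38.p14, read 5′ to 3′ on the gene's own strand. Capitals mark CCAT or its reverse complement ATGG, the short letters at the centre of YY1 motifs.
CD276: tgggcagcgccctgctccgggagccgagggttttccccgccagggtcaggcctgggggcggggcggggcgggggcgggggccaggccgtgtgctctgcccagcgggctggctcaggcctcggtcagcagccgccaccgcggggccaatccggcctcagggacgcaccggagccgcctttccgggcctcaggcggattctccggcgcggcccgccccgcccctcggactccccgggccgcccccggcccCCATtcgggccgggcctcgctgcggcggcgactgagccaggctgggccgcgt
PVR: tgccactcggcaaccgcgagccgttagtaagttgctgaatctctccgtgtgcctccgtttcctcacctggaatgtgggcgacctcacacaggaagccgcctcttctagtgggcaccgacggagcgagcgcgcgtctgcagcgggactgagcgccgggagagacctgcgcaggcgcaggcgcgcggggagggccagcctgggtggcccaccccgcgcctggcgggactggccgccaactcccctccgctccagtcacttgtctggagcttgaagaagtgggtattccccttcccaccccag
NECTIN2: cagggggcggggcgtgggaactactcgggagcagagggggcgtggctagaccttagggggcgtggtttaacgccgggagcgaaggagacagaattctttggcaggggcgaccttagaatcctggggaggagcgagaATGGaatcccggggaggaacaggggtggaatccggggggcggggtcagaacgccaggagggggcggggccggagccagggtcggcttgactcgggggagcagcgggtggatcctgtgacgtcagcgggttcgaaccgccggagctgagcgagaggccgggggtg
CD47: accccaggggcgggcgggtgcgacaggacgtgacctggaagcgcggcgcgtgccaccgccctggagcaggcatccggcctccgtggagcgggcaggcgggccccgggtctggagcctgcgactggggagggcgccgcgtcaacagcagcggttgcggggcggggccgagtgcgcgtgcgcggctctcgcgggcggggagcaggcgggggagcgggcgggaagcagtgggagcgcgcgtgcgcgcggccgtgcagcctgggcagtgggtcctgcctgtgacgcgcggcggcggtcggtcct
These windows are chr15:73684133-73684432 on the plus strand for CD276, chr19:44643660-44643959 on the plus strand for PVR, chr19:44846047-44846346 on the plus strand for NECTIN2 and chr3:108090982-108091281 on the minus strand for CD47. The RefSeq span of CD276 begins at 73683944, upstream of its window, so sequence near that end of the gene was not searched. The same holds for the TNFRSF14 window counted among the promoters.

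Motif matches were few in these windows. CD276, the lowest of the ligand genes, held a single CCAT, which spanned its start, and NECTIN2, which differed little, held a single ATGG. PVR and CD47, on opposite sides of 0, held neither. CCAT in either orientation was present in 5 of the 9 ligand gene promoters in the table (PDCD1LG2 was not among them) and in 74.7% of 15842 protein-coding promoters of the same length. The longer letters GCCAT and CCATNTT, whose matches all contain CCAT, were searched on both strands too. GCCAT was found in 0 of the 9 and in 37.4% of all protein-coding promoters, and CCATNTT in 0 of the 9 and in 14.8%. The search for CCAT was added after those longer motifs gave no match. TTCNNNGAA, the letters of a STAT-bound interferon gamma element, was present in 1 of the 9, as TTCACCGAA in the CD274 window at chr9:5450292-5450591 (plus strand), and in 6.97% of all protein-coding promoters. These are matches of letters in a short window and say nothing of binding.

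CD276 had the lowest difference of the 10 genes. It stood at 10.30 on the siControl array and 7.43 on the siYY1 array, a difference of -2.87 or a 7.30-fold lower level. The deposited values before any scaling here were 10.36 and 7.43. CD276 was thus well above the brightness minimum in the control culture and just under it after YY1 siRNA. Its difference ranked 7th from the lowest of 8747, and only 6 genes differed by a larger amount in either direction. Among 1540 genes whose siControl level lay within 0.5 of that of CD276, the median difference was -0.02, 10.6% were at least 2-fold lower, and 2, CD276 included, were as low as CD276. These ranks describe the gene that the list was built around.

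The 3 protein-coding genes nearest to CD276 over both arrays, by Euclidean distance between their log2 levels, were TTC31, MB21D2 and DHRS13. Their distances were 0.28, 0.33 and 0.36, over 2 arrays. TTC31 was at 10.02 and 7.41, MB21D2 at 9.97 and 7.47, and DHRS13 at 10.13 and 7.75. With 2 arrays, nearness means only a similar level on each, between probe sets whose brightness need not be on a common scale.

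The nectin-type ligands PVR and NECTIN2, which share TIGIT and CD226 as receptors, lay on opposite sides of 0. PVR was at 11.71 on the siControl array and 10.49 on the siYY1 array, a difference of -1.22 or a 2.33-fold lower level. It was the only other ligand gene compared that passed 2-fold, at rank 505 from the lowest of 8747. NECTIN2 was at 11.98 and 12.34, which is 0.35 higher or 1.28-fold. Both were bright on both arrays. A difference the size of that of NECTIN2 was common: 52.2% of genes compared lay within 0.5 of 0.

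CD47, the ligand of the macrophage receptor SIRPA, had the highest difference among the 4 genes compared. Its level was 10.45 on the siControl array and 11.33 on the siYY1 array, a difference of 0.87 or a 1.83-fold higher level, at rank 895 from the highest. Among the 4 genes compared, PVR was thus the one just past 2-fold, and CD47 was the one just short of it.

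**Figure D2:**
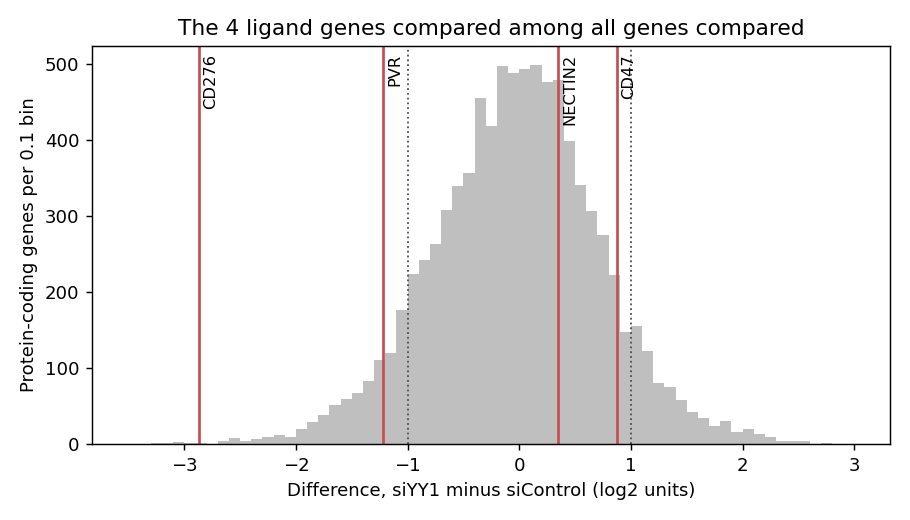
Histogram of the difference, siYY1 minus siControl in log2 units, over the 8747 protein-coding genes compared (grey, genes per 0.1 bin), with red lines at the 4 ligand genes compared and dotted lines at 2-fold. CD276 at -2.87 lies in the far lower tail, PVR at -1.22 just past 2-fold, NECTIN2 at 0.35 in the bulk and CD47 at 0.87 short of 2-fold.

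The PD-1 ligands were dim. CD274 was at 7.32 on the siControl array and 7.33 on the siYY1 array, a difference of 0.01, so its level was near the brightness minimum and was nearly equal on the 2 arrays. PDCD1LG2, the other PD-1 ligand, was at 3.53 and 4.58, a difference of 1.05 or 2.06-fold. Both PDCD1LG2 values were far below the minimum. Of the 8498 protein-coding genes under that minimum, 3.06% differed at least 2-fold in either direction.

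The other dim ligand genes differed little. VTCN1 was at 4.87 and 4.76, TNFRSF14 at 5.49 and 5.44, and LGALS9 at 5.64 and 5.56, on the siControl and siYY1 arrays in that order. Their differences were -0.11, -0.06 and -0.08. CEACAM1 was at 5.02 and 4.55, a difference of -0.47. Of the dim protein-coding genes 77.8% lay within 0.5 of 0, as these 4 did. The signs of CD274, VTCN1, TNFRSF14 and LGALS9 changed with the scaling, within -0.11 and 0.11, so no direction is given for them. LGALS9 has near-identical copies, LGALS9B and LGALS9C, and CEACAM1 belongs to a family of close paralogs, so their probe sets may share signal with those genes.

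**Figure D3:**
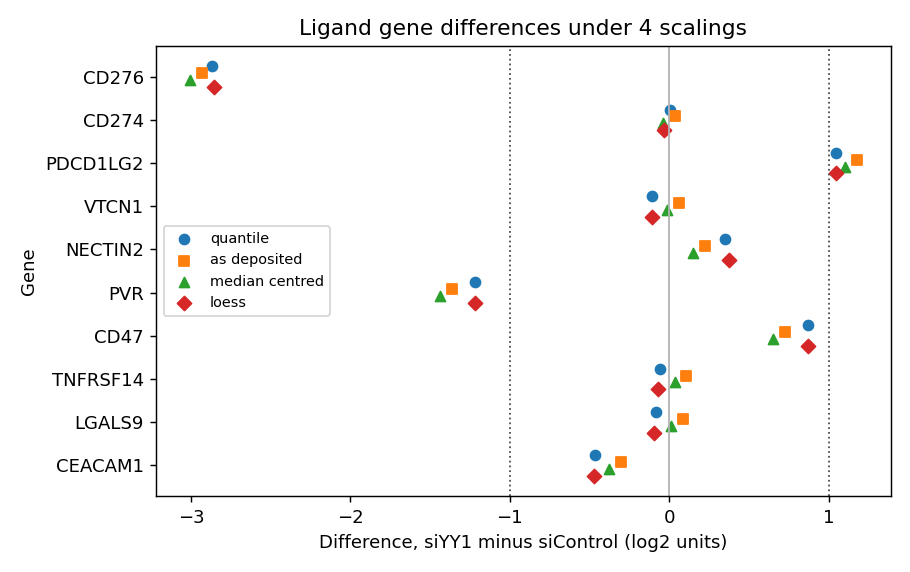
Difference, siYY1 minus siControl in log2 units, of each ligand gene (rows) under quantile normalization, the values as deposited, centring on medians and loess, with dotted lines at 2-fold. CD276 ran from -3.01 to -2.86, PVR from -1.44 to -1.22 and CD47 from 0.65 to 0.87, while 4 dim genes changed sign close to 0.

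Genes around the ligands were described through 8 lists of relatives, partners and regulators written from general knowledge. They held 161 genes, of which 152 were named and 84 compared. At least 2-fold lower were 6 of the 84 (7.14%) and at least 2-fold higher also 6 (7.14%), against the 9.37% and 7.92% over all genes compared. Their median difference was -0.08. The balance rested on the scaling: the values as deposited gave 10 lower and 4 higher (11.9% and 4.76%), against 12.2% and 6.13% of all genes compared under that scaling. Centring on medians gave 13 lower and 3 higher (15.3% and 3.53%), against 14.3% and 5.03%. Loess gave 8 lower and 6 higher, against 9.64% and 7.59% of all genes. The deposited values and median centring moved the median over all genes compared from -0.01 to -0.13 and -0.20. The shares of 9.37% and 7.92% also stand beside the counts past 2-fold in each list below. Nothing is read from counts in lists this short.

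Among 16 relatives of the B7 ligands, 7 were compared, with 1 at least 2-fold lower and 0 higher, and a median of -0.15. NCR3LG1 (B7-H6), the ligand of the activating natural killer receptor NKp30, was at 10.37 and 8.98, a difference of -1.39 and the lowest of this list. The butyrophilins BTN3A2 and BTN3A1, which take part in activation of gamma delta T cells, were at -0.89 and -0.81, and BTN3A3 at -0.15. BTN2A2 was the highest, at 0.43. The 3 BTN3A genes are near-identical, so their probe sets may share signal. The costimulatory ligands CD80 and ICOSLG and the checkpoint ligands VSIR and HHLA2 were too dim to be compared.

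Among the nectin relatives 3 genes were compared and their median was 0.54. AFDN (afadin), which anchors nectins to actin, was at 10.11 on the siControl array and 11.59 on the siYY1 array, a difference of 1.49. CRTAM, a receptor for the nectin-like protein CADM1, was at 7.94 and 6.85, a difference of -1.09 that ended below the brightness minimum. NECTIN1, NECTIN3 and NECTIN4 were too dim to be compared.

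The list of galectin and CEACAM relatives gave 4 genes compared, with a median of -0.77 and 1 at least 2-fold lower. The 4 were LGALS2, LGALS3, LGALS8 and LGALS3BP, and every named CEACAM gene of the list was too dim to be compared. LGALS3BP, a secreted binding partner of galectin-3, was at 13.04 and 11.82, a difference of -1.22 or 2.32-fold. LGALS8 and LGALS3 were at -0.78 and -0.75. The highest was LGALS2 at 0.34, close to the brightness minimum. CEACAM5, an antigen of many colorectal tumours, was dim on both arrays, at 5.22 and 4.81.

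TNF ligands and receptors, relatives of TNFRSF14, gave 10 genes compared with a median of -0.32. TNFRSF10B, the death receptor for TRAIL also called DR5, was at 10.46 and 8.94, a difference of -1.52 and the only one of the 10 past 2-fold. TNFSF10, which encodes TRAIL itself, was too dim to be compared, at 6.51 and 4.30, a difference of -2.22. TNFRSF21, another death receptor, was the highest at 0.88. TNFSF14, the ligand of TNFRSF14 known as LIGHT, was dim.

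The receptors on immune cells for the ligands were dim wherever they had a named probe set. Of 18 listed genes 17 were named and 0 were compared. PDCD1, the gene of PD-1, had no named probe set and was not analysed here. Their levels ran from 3.15 to 5.83 on the siControl array and from 2.89 to 5.65 on the siYY1 array. TIGIT, at 5.42 and 5.60, CD226, at 4.62 and 4.90, and SIRPA, at 5.11 and 5.27, were among them.

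Genes for stabilising, modifying or shedding the ligand proteins gave 20 genes compared, with a median of -0.15. Past 2-fold were 1 gene on the lower side and 3 on the higher side, against 9.37% and 7.92% of all genes compared. GSK3B, a kinase that marks PD-L1 for degradation, was at 12.23 and 13.97, a difference of 1.75. The deubiquitinase USP22 was at 1.15, and QPCT, a glutaminyl cyclase, at 1.05. In the values as deposited QPCT was at 0.91, and centred on medians USP22 was at 0.93, both then short of 2-fold. QPCTL, the related Golgi cyclase known to modify CD47 for SIRPA binding, was at 7.48 and 6.33, just too dim to be compared. SPOP, an adaptor of a ubiquitin ligase that acts on PD-L1, was the lowest, at 9.77 and 8.24, a difference of -1.53. CMTM6, which keeps PD-L1 at the cell surface, was at -0.48 and its relative CMTM4 at 0.63.

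The interferon gamma, JAK-STAT and NF-kB list gave 15 genes compared, with a median of 0.23 and 11 above 0, where 49.5% of all genes compared were above 0. The median was 0.09 in the values as deposited and 0.02, with 8 above 0, when centred on medians. Over all genes compared the median was -0.01 in the main scaling, -0.13 as deposited and -0.20 centred on medians. TYK2, a JAK family kinase, was at 9.38 and 10.48, a difference of 1.10 and the only one past 2-fold, which it missed at 0.98 in the values as deposited. STAT3 was at 0.94 and JAK1 at 0.70. The NF-kB subunit RELA was the lowest, at -0.64. IRF1, a direct mediator of CD274 induction by interferon gamma, was at 7.31 and 6.43 and too dim to be compared. CD274, also too dim to be compared, differed by 0.01, and its relation to the genes of this list was not tested.

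Other ligands seen by T cells, natural killer cells and phagocytes gave 25 genes compared, 1 past 2-fold on each side, with a median of -0.06. ULBP3, a stress-induced ligand of the activating receptor NKG2D, was at 10.48 and 8.53, a difference of -1.95 or 3.87-fold. Another such ligand, ULBP1, was at -0.96, while ULBP2 was at 0.00 and MICA at 0.35. NT5E (CD73), which makes immunosuppressive adenosine, was the highest, at 12.52 and 14.03, a difference of 1.51 or 2.84-fold. CD24, a further signal against phagocytosis, was at -0.10, and calreticulin (CALR), a signal for it, at -0.06.

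**Figure D4:**
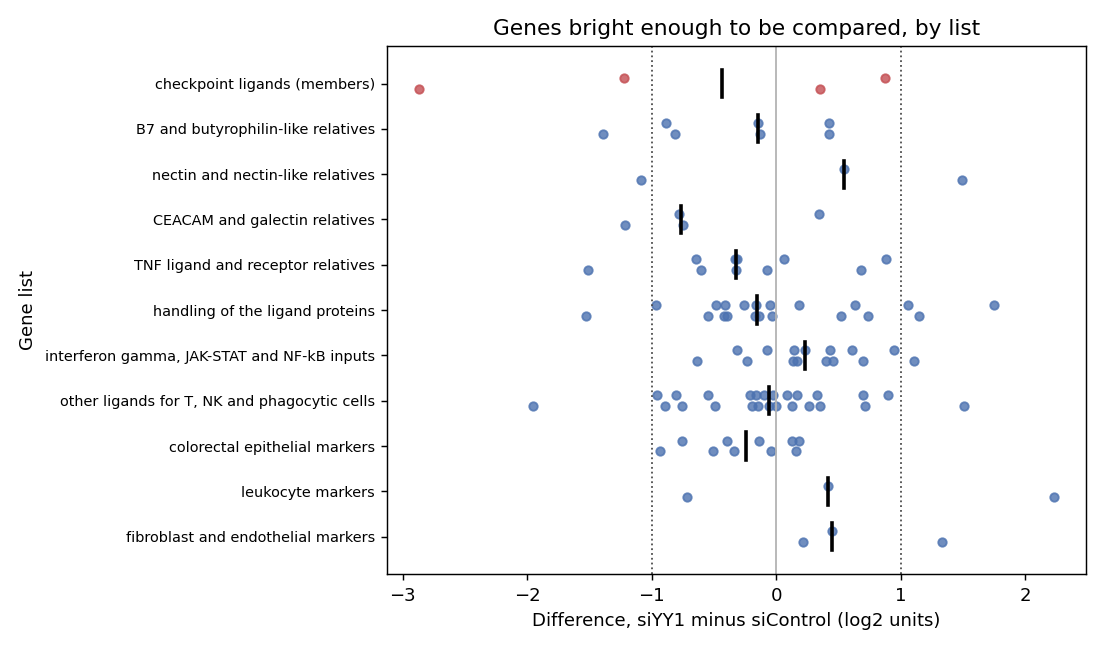
Difference, siYY1 minus siControl in log2 units, of every gene bright enough to be compared in the ligand list (red) and in the lists of relatives, partners and markers (blue), with black bars at list medians and dotted lines at 2-fold. CD276 at -2.87 is the lowest point in the plot, and HBA1 at 2.23 in the leukocyte list the highest.

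Markers of cell identity were read beside these values. Of 15 colorectal epithelial markers 13 were named and 10 compared, none past 2-fold. Below 0 were 7 of the 10, where 50.4% of all genes compared were below 0. The median difference of these markers was -0.24, and it was -0.38 in the values as deposited and -0.45 when centred on medians. The median over all genes compared was -0.01, -0.13 and -0.20 in that order. The lowest was the tight junction gene CLDN4 at -0.94, followed by CDX2 at -0.76 and VIL1 at -0.51. EPCAM, at 16.29 and 16.47, was the highest at 0.18. The log2 of the summed signal of the 13 named epithelial markers was 18.38 on the siControl array and 18.39 on the siYY1 array. The intestinal markers CDX1, LGALS4 and GPA33 were dim on both arrays. Of 21 leukocyte and blood markers 20 were named and 3 compared. The log2 of the summed signal of these 20 was 10.31 on the siControl array and 11.04 on the siYY1 array, and HBA1, an erythroid globin, was at 7.61 and 9.84. Without HBA1, left out after its value was seen, the sum was 10.07 and 10.21. The monocyte gene CD14 was the lowest compared, at 7.67 and 6.95, a difference of -0.72. The defining leukocyte gene PTPRC was at 4.96 and 4.98. For 14 named fibroblast and endothelial markers the summed signal was 9.98 and 10.49 in log2 units, with ENG at 7.45 and 8.77, the highest compared at 1.33, and COL1A2 at 8.62 and 8.84, the lowest compared at 0.21. Their part in the ligand values was not tested.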

How the data were processed

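Total RNA of 2 DLD-1 cultures was made into sense cDNA, and the fragments carried biotin for hybridisation to a GeneChip, per the labels' protocols. The authors deposited 1 value per probe set and array, taken here as log2 from its range. The sources used here do not state its software or normalization. The deposited quartiles of the siYY1 array differed from siControl by 0.18, 0.07 and -0.13, so the pair was quantile normalized over 21448 probe sets.

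Of these, 17709 probe sets had 1 gene symbol in the platform annotation table and 3739 had none, which were left out. All 17687 gene IDs matched RefSeq (GRCh38.p14). Probe sets of a gene were averaged. With 1 array per group no test was possible, and genes were described by size at 2-fold. The number of arrays limits the precision. The text names all 10 members, genes compared that passed 2-fold in a list, the highest and lowest gene compared in each list, and the 3 genes nearest to CD276. Other list genes were named after their values were seen. The members and lists were chosen with earlier results of these data known. List genes without a named probe set were not analysed here. Alternatives were the deposited values, median centring, loess, the brightest probe set, other brightness minimums and thresholds of 1.5-fold and 3-fold. The code was checked on simulated data with planted shifts, which says nothing of whether the differences given here would recur. Python 3.11.15, numpy 2.4.6, pandas 2.3.3, statsmodels 0.14.6 and matplotlib 3.10.9 were used.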

Additional observations from a re-analysis of the deposited data

How the results depend on the processing

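All 10 ligand gene differences were recomputed from the values as deposited, centred on medians and with loess on the mean level. None moved by more than 0.22, and there is no replicate error to set this against. Taking the brightest probe set could change none of them, since each had 1. CD276 stayed between -3.01 and -2.86, and 4 dim genes changed sign near 0. The count of ligand genes at least 2-fold lower was 2 of 4 under each of these scalings. Of all genes compared, 12.2% were that low as deposited, 14.3% centred on medians and 9.64% with loess. With the brightness minimum at the 75th percentile, which leaves out CD276, the count was 1 (PVR) of 3, against 8.67% of all genes compared. At 3-fold it was 1 (CD276) of 4, against 2.44%. The count at least 2-fold higher was 1 (PDCD1LG2) of 10 with no brightness minimum, against 4.62% of all genes compared. At 1.5-fold 1 (CD47) of 4 was higher, against 19.4%. For the related lists, 6 lower and 6 higher (7.14% each) became 10 lower and 4 higher (11.9% and 4.76%) with the deposited values. Centred on medians the counts were 13 lower and 3 higher (15.3% and 3.53%). The shares over all genes compared were 12.2% and 6.13% as deposited, and 14.3% and 5.03% centred on medians. At the 75th percentile 1 of 51 was lower and 5 higher (1.96% and 9.80%), against 8.67% and 8.31% of all genes compared. At 1.5-fold 18 of 84 were lower and 16 higher (21.4% and 19.0%), against 21.8% and 19.4% of all genes compared. At 3-fold 1 was lower and 1 higher (1.19% each), against 2.44% and 1.89%. No paired analysis was possible because each group held 1 array. Low signal over background limits what the 6 dim ligand genes can show.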
